A study of Bos taurus with 25 samples.

Results

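The genes described here carry the prolactin and growth hormone signal in the bovine liver and mammary gland. They are the receptors PRLR and GHR, the kinase JAK2, the transcription factors STAT5A, STAT5B and ELF5, the feedback inhibitors SOCS2 and CISH, and the growth factor IGF1 with its receptor IGF1R. Every probe of the array whose name is paired with one of these symbols was taken, which gave 14 of 43653 probes and covered 8 of the 10 genes, out of 11068 genes with a symbol on the array. JAK2 and IGF1R were matched to no probe and were not analysed here. The genes were chosen by name, with earlier results of these data known. Where a gene has more than 1 probe, its lead probe stands for it, which is the probe with the highest mean over both tissues, and the other probes are given beside it.

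Prolactin and growth hormone bind related cytokine receptors that have no kinase of their own and signal through JAK2, which phosphorylates STAT5A and STAT5B. In the liver, growth hormone drives the synthesis of IGF1, and in the lactating gland prolactin signals through STAT5 and ELF5 to maintain the secretory epithelium and its milk protein genes. SOCS2 and CISH are induced by STAT5 and damp the signal at the receptor.

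The study asked how folic acid (vitamin B9) and vitamin B12 alter gene expression in early lactation. Multiparous Holstein cows received a weekly intramuscular dose in 5 mL, which was saline in control cows, 320 mg of folic acid in B9 cows, 10 mg of cyanocobalamin in B12 cows and both doses in B9 + B12 cows, and biopsies of both organs were taken 64 ± 3 days after calving. RNA of single cows was hybridised to 1-color Agilent bovine arrays. In the liver there were 3 control, 3 B9, 4 B12 and 2 B9 + B12 arrays, and in the mammary gland 3, 3, 4 and 3. The 25 arrays came from 13 cows, of which 12 gave both tissues. Within a tissue each array is of a different cow, so that a p-value between treatments measures the spread between cows. The main comparison of the tissues was fitted over the arrays without the cow as a block, and fits with the cow as a block are given at the end.

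All levels are log2 intensities. Levels set between the tissues come from quantiles over all 25 arrays, and levels set between treatments come from quantiles within a tissue, so the same array has a slightly different value on each scale. The brightness of a probe also depends on its sequence, and no level of a probe is set against that of another probe. Arrays of the liver had a signal of 2.24 to 10.4 times their background and those of the gland of 2.93 to 5.06 times. Liver arrays of cow 57 (B9) and cow 32 (B9 + B12) stood apart, with median correlations to the other liver arrays of 0.972 and 0.973, where the remaining 10 were at 0.989 to 0.992. The summed level of hepatocyte markers (6 of 6 found) was 20.16 to 20.37 in the liver and 12.52 to 15.16 in the gland, where APOA1, SERPINA1 and TTR were well above background on 13 of 13 arrays and FGB on 4. That of mammary epithelial markers (6 of 7 found) was 20.17 to 20.24 in the gland and 14.48 to 15.92 in the liver, where BTN1A1 was well above background on 1 of 12 arrays. The keratins of that list had higher medians in the liver, with ranges of 13.51 to 15.21 against 9.56 to 12.48 for KRT18 and of 13.16 to 14.30 against 11.17 to 13.21 for KRT8. The adipocyte list (3 of 4 found) was at 15.41 to 16.39 in the gland and 7.81 to 8.44 in the liver, through FABP4. Ranges in gland and liver were 13.94 to 14.64 and 12.58 to 13.10 for stroma, 11.69 to 12.13 and 12.65 to 13.67 for immune cells, 9.28 to 10.47 and 9.12 to 10.16 for endothelium and 10.33 to 11.47 and 10.58 to 11.20 for muscle. The part of cell composition in the values below was not tested, and in whole biopsies fewer cells of a type and less RNA per cell cannot be told apart.

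Liver and mammary gland differed in the balance of this pathway. ELF5, STAT5A and CISH were higher in the mammary gland, whereas GHR and IGF1 were higher in the liver. These 5 of the 8 genes were called, meaning that they passed both an adjusted p of 0.05 and a 2-fold difference, where 19.4% of the 27841 named features did so (11.1% higher and 8.26% lower in the gland). The median difference, gland minus liver, was 0.10 over the 8 genes and 0.03 over all features.

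GHR binds growth hormone, the main hormonal driver of hepatic IGF1. Its level had a low of 10.44, a median of 11.44 and a high of 12.03 over the 12 liver arrays, and a low of 8.70, a median of 9.05 and a high of 9.27 over the 13 gland arrays. The tissues did not overlap, and the liver of each of the 12 cows with both biopsies had the higher level. The difference was -2.39 (SE 0.13, 95% confidence interval -2.67 to -2.11) on the log2 scale, or 5.24-fold lower in the gland (limma, adjusted p = 2.94e-12).

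PRLR, the prolactin receptor, was not restricted to the gland at the level of its probes. The lead probe had a low of 10.01, a median of 11.11 and a high of 11.84 in the liver, and a low of 10.09, a median of 10.28 and a high of 10.81 in the gland. All gland arrays thus lay inside the range of the liver arrays, and the liver was higher in 11 of 12 cows. The difference of -0.62 (SE 0.14) was 1.53-fold (limma, adjusted p = 0.000625), under the 2-fold limit, and within single cows it ranged from -1.14 to 0.18. The other PRLR probe, whose array name belongs to another PRLR transcript, differed by -0.94 (SE 0.12), with the liver higher in 12 of 12 cows. In control cows alone the lead probe differed by -1.02 (adjusted p = 0.0080), which is past the limit.

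**Figure D1:**
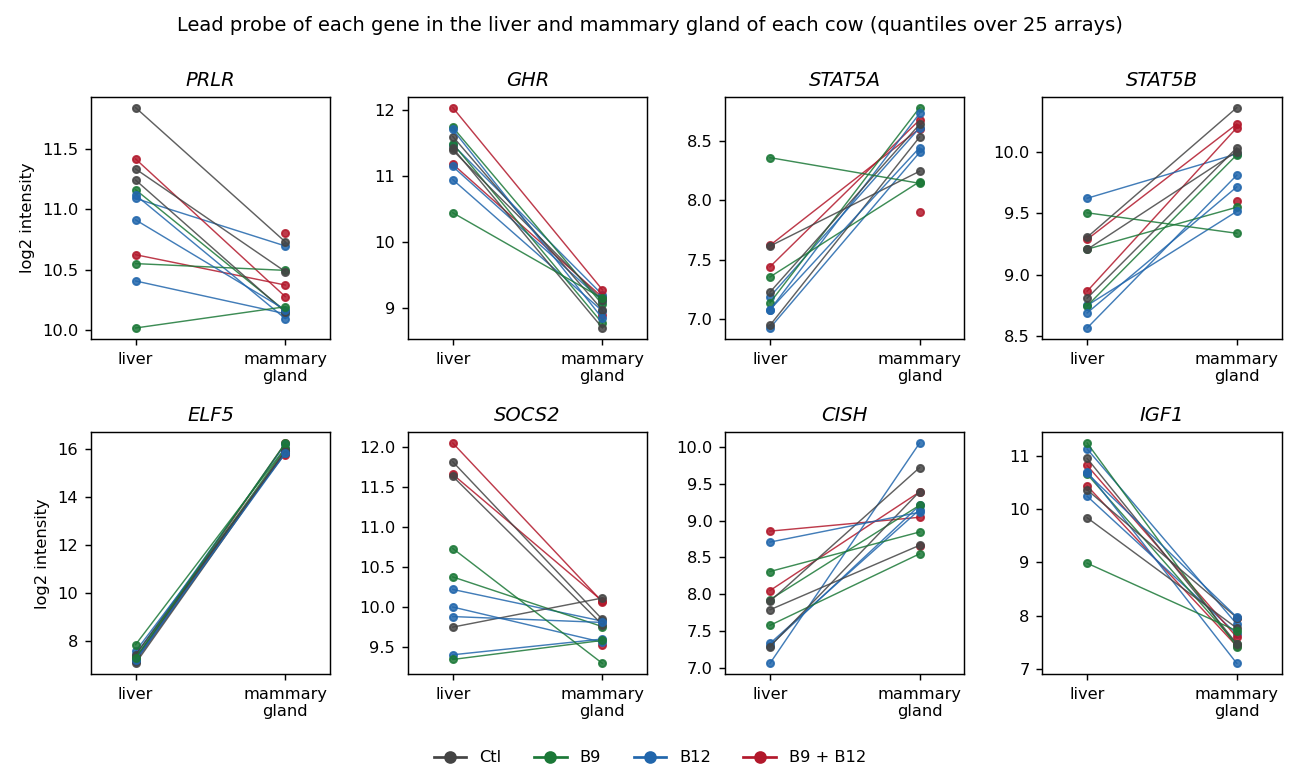
Levels of the lead probe of each of the 8 genes (vertical axes, log2 intensity, quantiles over 25 arrays, each panel with its own range) in the liver and mammary gland, with a line joining the biopsies of the same cow and colors for the treatments. ELF5 rose and GHR and IGF1 fell from liver to gland in all 12 cows with both tissues, whereas the PRLR and SOCS2 levels of the gland lay within or near the range of the liver.

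STAT5A and STAT5B are the latent transcription factors that both receptors activate. STAT5A had a low of 6.92, a median of 7.21 and a high of 8.36 in the liver and of 7.90, 8.53 and 8.78 in the gland. The ranges overlapped through a single liver array, that of cow 57, and the gland was higher in 11 of 12 cows. The difference was 1.07 (SE 0.13), or 2.11-fold higher in the gland (adjusted p = 4.39e-07). The other STAT5A probes differed by 0.70 (SE 0.053) and 0.62 (SE 0.056), and the mean of the 3 probes differed by 0.80, so that STAT5A was not past 2-fold by that mean (adjusted p = 3.18e-10).

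STAT5B had a low of 8.56, a median of 9.03 and a high of 9.62 in the liver, and a low of 9.34, a median of 9.98 and a high of 10.36 in the gland. The gland was higher in 11 of 12 cows, and the exception was again cow 57. The difference was 0.82 (SE 0.13), or 1.76-fold (adjusted p = 1.34e-05), under the 2-fold limit, and was 1.03 in control cows alone (adjusted p = 0.0026), which passed it. The genes are near-identical paralogs, and how far their probes tell them apart is uncertain, since the probe sequences were not used here. The level of total mRNA also leaves phosphorylation unmeasured, which is the step that activates both factors.

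ELF5, an ETS factor of the secretory epithelium, separated the tissues most widely among the 8 genes. Its level had a low of 7.08, a median of 7.29 and a high of 7.86 in the liver and a low of 15.75, a median of 15.92 and a high of 16.27 in the gland. The spread within each tissue was thus below 1 log2 unit, and the distance between the tissues was 8.66 (SE 0.078), or 406-fold (adjusted p = 5.74e-25). It was 9.55 with the processed signal scaled at the 75th percentile and 9.04 without background correction. The other ELF5 probe differed by 8.41 (SE 0.078). Both probes were well above background on all 12 liver arrays, so that the liver values are measurements rather than bounds.

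The feedback inhibitors differed in opposite directions. CISH, an SH2-domain inhibitor of cytokine receptors, had a low of 7.06, a median of 7.85 and a high of 8.86 in the liver and a low of 8.55, a median of 9.15 and a high of 10.05 in the gland. It was higher in the gland of 12 of 12 cows, by 1.22 (SE 0.19), or 2.33-fold (adjusted p = 1.28e-05). When the slide entered the fit as a block, the difference was 0.91 (adjusted p = 0.0130), under 2-fold.

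SOCS2, the inhibitor most closely tied to the growth hormone receptor, had a low of 9.35, a median of 10.30 and a high of 12.05 in the liver and a low of 9.30, a median of 9.78 and a high of 10.12 in the gland. It was higher in the liver of 9 of 12 cows and higher in the gland of 3. The difference was -0.97 (SE 0.20, adjusted p = 0.000246), or 1.96-fold, just under the limit. It passed the limit without background correction, with the processed signal scaled at the 75th percentile (-1.21) and with normexp values scaled in the same way (-1.22). It also passed without the gland array of B9 cow 39 and without the liver array of control cow 43 (-1.14), B9 cow 41 (-1.07), B9 + B12 cow 32 (-1.02) or B12 cow 40 (-1.01).

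IGF1 is the circulating growth factor made mainly by the liver under growth hormone. Its level had a low of 8.99, a median of 10.67 and a high of 11.25 in the liver and a low of 7.10, a median of 7.65 and a high of 7.97 in the gland. The tissues did not overlap, and the liver was higher in 12 of 12 cows. The difference was -2.86 (SE 0.20), or 7.29-fold lower in the gland (adjusted p = 1.24e-10). The other IGF1 probes differed by -2.37 (SE 0.12) and -1.80 (SE 0.13), the first with 11 of 13 gland arrays well above background.

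**Figure D2:**
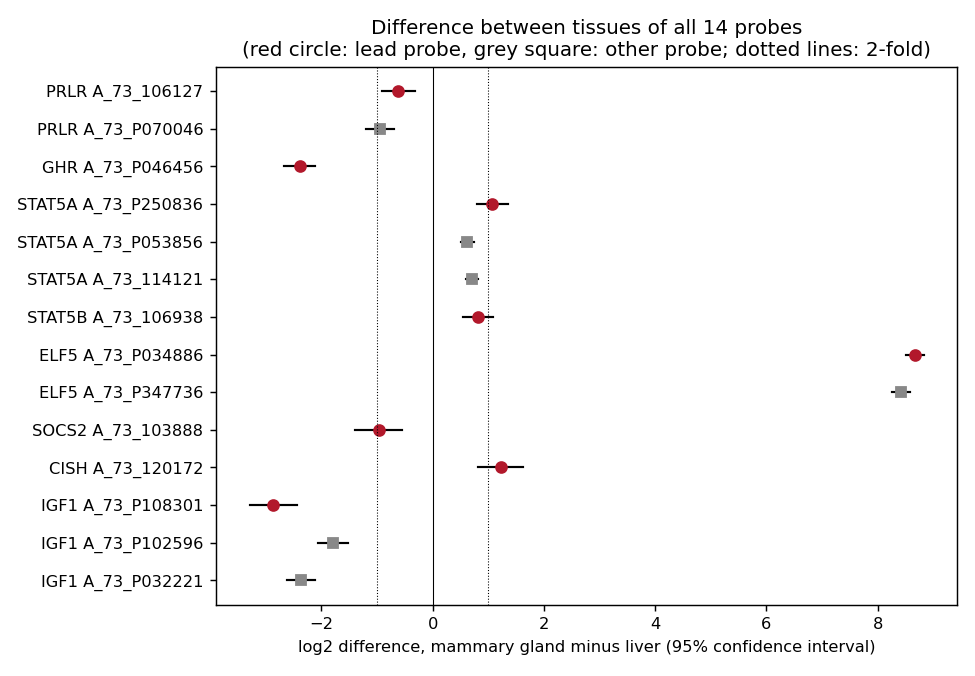
Difference between tissues (horizontal axis, log2, mammary gland minus liver) of all 14 probes of the 8 genes, with 95% confidence intervals from limma; red circles are lead probes, grey squares are other probes and dotted lines mark 2-fold. Probes of the same gene lay on the same side of 0, from -2.86 for the lead IGF1 probe to 8.66 for the lead ELF5 probe.

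Where arrays were scaled at their 75th percentile and not by quantiles, this moved the median of all features from 0.03 to 0.58 (processed signal) and to 0.86 (normexp values), and the share of called features that were higher in the gland from 57.4% to 72.2% and 82.6%. Relative to these medians, ELF5 (8.97 and 7.94), STAT5A (1.10 and 0.51) and CISH (1.08 and 0.49) stayed above the median of all features. GHR (-3.26 and -3.44), IGF1 (-3.98 and -3.68), PRLR (-1.39 and -1.75) and SOCS2 (-1.79 and -2.08) stayed below it. STAT5B was above it with the first (0.28) and below it with the second (-0.14). Leaving out the liver arrays of cows 57 and 32 gave 8.64 for ELF5, 1.19 for STAT5A, 1.37 for CISH, -2.59 for GHR and -3.08 for IGF1.

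Further genes of the pathway were listed by role, and 33 of the 49 listed were found. Between the tissues 12 were higher in the gland, 8 were lower and 13 did not pass, where of all named features 11.1% were higher and 8.26% lower, and the median difference was 0.44. Of the 7 known target genes found, 4 were higher and 1 lower: LALBA, the milk protein alpha-lactalbumin, was higher by 10.99 (SE 0.29) and CSN1S1, a casein, by 9.69 (SE 0.33). Of the 4 epithelial ETS and gland factors 3 were higher, with GATA3, a luminal transcription factor, at 6.26 (SE 0.10) and EHF, an ETS factor like ELF5, at 4.81 (SE 0.071).

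The IGF axis was split, with 3 of 10 genes higher in the gland and 6 lower. IGFBP2, a carrier of IGF, fell by 6.12 (SE 0.23) from liver to gland, and IGFBP1, another carrier, had measured means of 12.79 in the liver and 6.04 in the gland (limma adjusted p = 2.84e-13), with 1 of its 13 gland arrays well above background. Of the 9 other inhibitors and phosphatases 2 were higher in the gland: PTPN2, a phosphatase of JAK and STAT proteins, by 1.10 (SE 0.070) and PIAS1, an inhibitor of STAT proteins, by 1.07 (SE 0.24). Of the other cytokine receptors and kinases, the leptin receptor LEPR was well above background on 12 of 12 liver arrays and on 0 of 13 gland arrays, and was at least 4.57-fold lower in the gland (measured means 8.19 and 5.93, limma adjusted p = 4.15e-14). That bound sets the liver mean against the lowest signal that was well above background on each gland array.

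The vitamins moved none of the 8 genes past the threshold. In the 6 comparisons with control cows, limma called 0 of 48 changes, with 4 at an unadjusted p below 0.05 and a smallest adjusted p of 0.687. Cyber-T, the test of the study's methods, also called 0, where it called 0.0108%, 0.0898% and 0.0503% of all named features in the liver with B9, B12 and B9 + B12, and 0.0144%, 0.0251% and 0.018% in the gland. By that test 7 changes had an unadjusted p below 0.05, and of all named features 4.48%, 4.45% and 6.56% had in the liver and 3.74%, 3.85% and 3.72% in the gland. Among all named features limma called 0% in each comparison except B12 in the liver, where it called 0.00359%. Of the 4 changes of lead probes below 0.05, 1 was seen with B9 and 1 with B12 in the liver, where 3.16% and 2% of all named features were below 0.05, and 2 with B9 in the gland, where 2.44% were. None was seen with B9 + B12 in the liver (5.88% of all named features) or with B12 (2.38%) or B9 + B12 (1.92%) in the gland. Changes on the log2 scale lay between -0.98 and 0.42 for B9, -1.28 and 0.33 for B12 and -0.49 and 0.91 for B9 + B12 in the liver. In the gland they lay between -0.47 and 0.24, between -0.35 and 0.11 and between -0.21 and 0.17.

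These comparisons left wide intervals in the liver and narrower ones in the gland. The 95% confidence interval of a change reached 0.45 to 1.28 log2 units on each side of the estimate for B9 in the liver and 0.29 to 0.65 for B9 in the gland. On simulated data with the spread of these arrays, limma found 34.3% of the changes of 1 log2 unit and 95.5% of those of 2 for B9 in the liver, and 47.8% and 97.0% for B9 in the gland. Since a call also needs a 2-fold estimate, a true change of 1 log2 unit lies at that limit, and over the 25 arrays of the tissue comparison 43.3% of such changes were found.

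**Figure D3:**
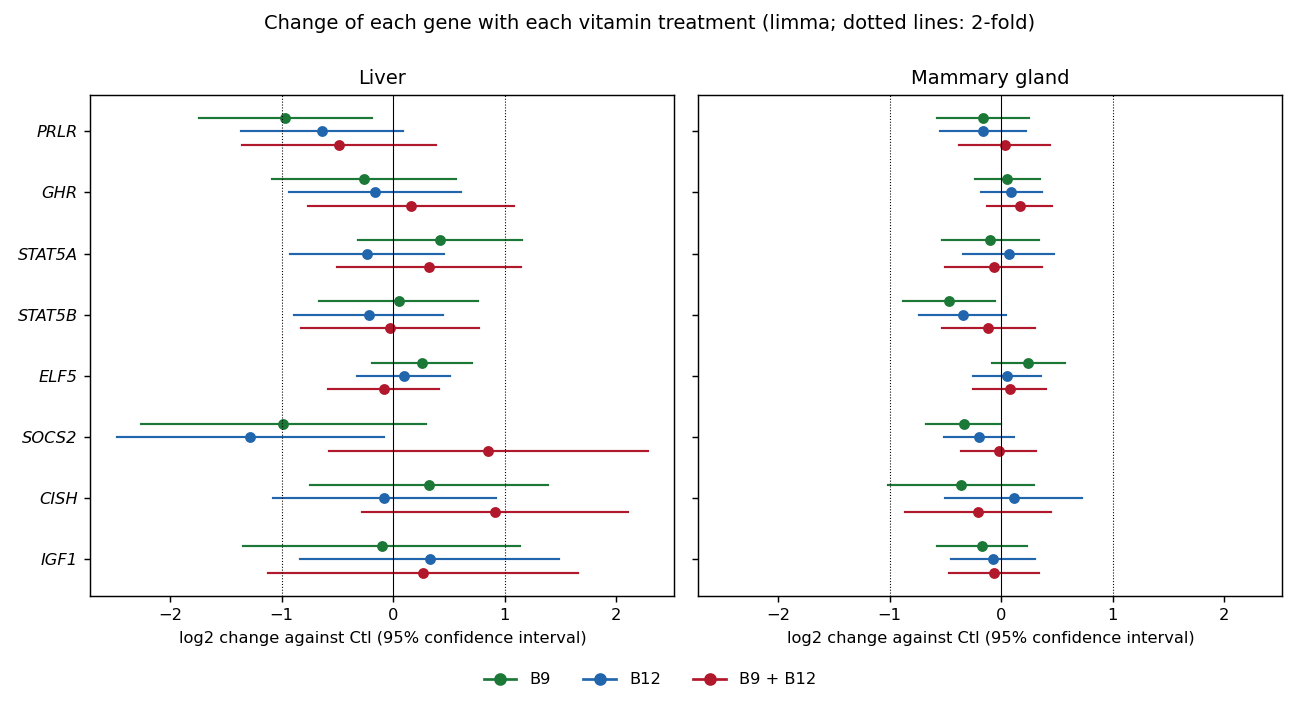
Change of the lead probe of each gene against control cows (horizontal axes, log2) in the liver and the mammary gland for each vitamin treatment, with 95% confidence intervals from limma and dotted lines at 2-fold. Liver estimates ranged from -1.28 to 0.91 with the widest intervals for SOCS2, CISH and IGF1, and gland estimates stayed between -0.47 and 0.24.

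Hepatic PRLR was lower on every B9 and B12 array than on any control array. Control cows 42, 43 and 51 were at 12.15, 12.05 and 12.72, and B9 cows 39, 41 and 57 at 11.97, 11.32 and 10.74. It was the 1 gene of the 8 whose B9 and control arrays did not overlap in the liver, where 8.2% of all named features had no overlap. The change was -0.97 (SE 0.35), with an unadjusted p of 0.0198 and an adjusted p of 0.906 (limma). The exact two-sided permutation test gave 0.1, the smallest p that 3 against 3 arrays allow. Without cow 57, the lowest of the B9 livers, the change was -0.67.

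B12 cows 36, 37, 40 and 52 had PRLR levels of 11.16, 11.89, 11.92 and 11.71, below the same 3 control arrays that the B9 cows were set against. It was also the 1 gene of the 8 without overlap in this comparison, where 5% of all named features had none. This change was -0.64 (SE 0.33, limma adjusted p = 1.00), with an exact permutation p of 0.0286, the smallest that 4 against 3 arrays allow. It was among 48 such tests of lead probes, and the other probes were tested in the same way. The B9 + B12 cows 32 and 38, at 11.40 and 12.24, overlapped the controls. The summed level of immune markers (4 of 5 found, each well above background on all liver arrays) also lay apart, at 12.65 to 12.75 in control livers, 12.81 to 13.18 with B9 and 12.83 to 12.90 with B12, and its part in these values was not tested. The other PRLR probe gave -0.48 (SE 0.30) with B9 and -0.53 (SE 0.28) with B12, and overlapped the controls in both. When the slide was a fixed block, the change of the lead probe was -1.66 with B9 and -0.36 with B12.

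GHR in the liver of control cows 42, 43 and 51 was at 12.24, 12.21 and 12.44, and in B9 cows 39, 41 and 57 at 12.59, 12.32 and 11.20. The B12 cows 36, 37, 40 and 52 were at 12.30, 11.94, 11.74 and 12.56, and the B9 + B12 cows 32 and 38 at 11.98 and 12.93. Each treated group had arrays above and below the controls. Changes were -0.26 (SE 0.37) with B9, -0.16 (SE 0.35) with B12 and 0.16 (SE 0.41) with both. Without cow 57 the B9 value was 0.16, and the B12 value ranged from -0.30 without cow 52 to -0.029 without cow 40.

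STAT5B in the gland was lower on every B9 and B12 array than on any control array. Control cows 42, 43 and 51 were at 9.34, 9.37 and 9.67 in the gland, B9 cows 39, 41 and 57 at 8.92, 9.31 and 8.73, and B12 cows 36, 37, 40 and 52 at 9.32, 9.16, 8.89 and 9.07. Both treated groups lay wholly below the controls, which are the same 3 arrays in both comparisons, while B9 + B12 cows 31, 32 and 38, at 8.96, 9.54 and 9.51, did not. The change was -0.47 (SE 0.19, unadjusted p = 0.0297) with B9 and -0.35 (SE 0.18, unadjusted p = 0.0744) with B12, with adjusted p of 1.00 in both (limma). Exact permutation tests gave 0.1 and 0.0571. The slide as a fixed block gave -0.74 and -0.57. The summed level of mammary epithelial markers hardly varied, at 20.17 to 20.22 with B12, 20.21 to 20.24 with B9 and 20.22 to 20.24 in controls. The highest B12 array, at 20.217, was just below the lowest control, at 20.222, and the B9 arrays overlapped the controls. The part of this level was not tested.

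In the gland of B9 cows, 3 of the 8 genes lay wholly on a side of the controls, where 6.74% of all named features did, with B12 1 gene did, where 3.8% did, and with B9 + B12 0 genes did, where 6.78% did. Besides STAT5B these were ELF5 and SOCS2. ELF5 was at 15.23, 15.27 and 15.17 in control cows 42, 43 and 51 and at 15.40, 15.36 and 15.62 in B9 cows 39, 41 and 57, a change of 0.24 (SE 0.15, limma adjusted p = 1.00) that was 0.12 when the slide was a fixed block. The other ELF5 probe overlapped the controls, with a change of 0.25 (SE 0.19, exact permutation p = 0.2). SOCS2 was at 9.19, 9.44 and 9.13 in the controls and at 9.11, 8.95 and 8.69 with B9, a change of -0.34 (SE 0.15, unadjusted p = 0.0495, adjusted p = 1.00) that was -0.22 without the gland array of B9 cow 57. Among other probes, an IGF1 probe lay below the controls on all B12 arrays of the gland, by -0.15 (SE 0.055, unadjusted p = 0.0199, limma adjusted p = 1.00, exact permutation p = 0.0571), and on all B9 arrays, by -0.12 (SE 0.059), whereas the lead IGF1 probe overlapped them. A STAT5A probe lay apart from the controls in the gland with B9, by -0.10 (SE 0.10), and in the liver with B12, by 0.12 (SE 0.080), where 5% of all named features did, and with B9 + B12, by -0.07 (SE 0.095), where 22.8% did. The lead STAT5A probe overlapped the controls in all 3. Both of these other probes were dim. In the gland the IGF1 probe had means of 6.41 (B12), 6.44 (B9) and 6.56 (control), and the STAT5A probe of 6.50 (B9) and 6.60 (control). In the liver the STAT5A probe had means of 6.34 (B12), 6.15 (B9 + B12) and 6.22 (control). Their SDs between cows of a group in the gland were 0.068 and 0.13, where the median of named features was 0.18. The nearest treated and control gland arrays of the lead probes were less than 0.1 log2 units apart for STAT5B, SOCS2 and ELF5 with B9 and for STAT5B with B12. The same held for hepatic PRLR with B9, at 11.97 in B9 cow 39 and 12.05 in control cow 43.

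**Figure D4:**
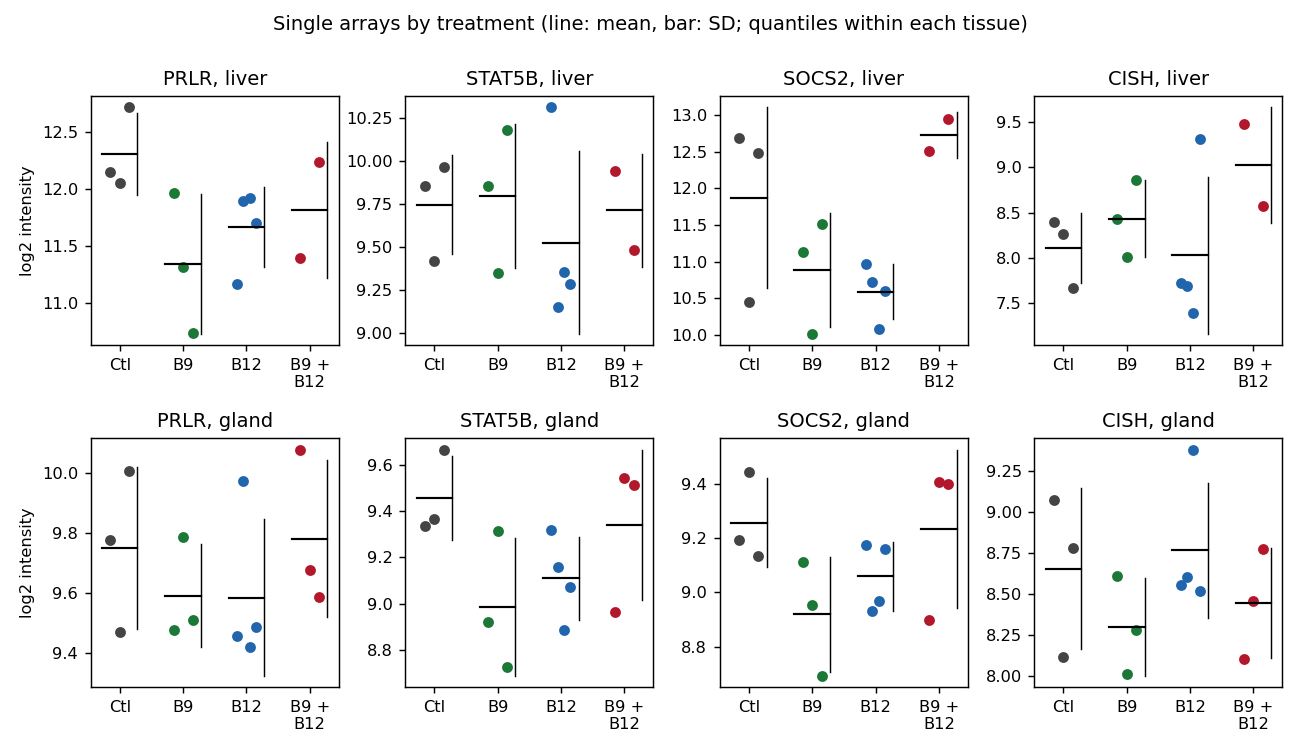
Levels of the lead probes of PRLR, STAT5B, SOCS2 and CISH in single liver (top) and mammary gland arrays (bottom) by treatment (vertical axes, log2 intensity, quantiles within a tissue, each panel with its own range), with horizontal lines at group means and vertical bars of 1 SD on each side. Liver SOCS2 was at 10.01 to 11.52 on 8 arrays and at 12.48 to 12.94 on the other 4, which were those of 2 control and both B9 + B12 cows.

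SOCS2 was the most uneven of the 8 genes between livers. Control cows 42, 43 and 51 were at 12.68, 10.45 and 12.48, B9 cows 39, 41 and 57 at 11.13, 10.01 and 11.52, B12 cows 36, 37, 40 and 52 at 10.96, 10.72, 10.08 and 10.60, and B9 + B12 cows 32 and 38 at 12.51 and 12.94. The 12 arrays thus fell into a set of 8 and a set of 4 with a gap between 11.52 and 12.48, and the control group had arrays in both. The change with B12 was -1.28 (SE 0.54), with an unadjusted p of 0.0382 and an adjusted p of 1.00 (limma). The exact permutation test gave 0.143. With B9 the change was -0.98 (SE 0.57) and with B9 + B12, in the other direction, 0.85 (SE 0.64). Without the liver array of control cow 43 these were -1.69 and 0.14, so that the size of the B9 + B12 change rested on that array.

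Control cow 43, whose slide was scanned on another day together with the liver arrays of B12 cow 37 and B9 + B12 cow 32, also moved the size of the B12 change most. Leaving its liver array out gave -1.99, and the liver arrays of the first scan day alone gave -2.04, whereas leaving out 1 of the other liver arrays at a time gave values from -1.41 to -0.88. The residual spread between cows of a group was 0.77 for SOCS2 (SD), above that of 97.6% of the 18214 named features that were well above background in the liver, whose median was 0.26. In the gland it was 0.20, where the median was 0.18.

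CISH in the liver was also uneven, with a residual SD of 0.64. Control cows 42, 43 and 51 were at 8.40, 8.26 and 7.67 and B9 + B12 cows 32 and 38 at 9.47 and 8.57. The combined treatment lay wholly above the controls, and CISH was the 1 gene of the 8 without overlap, where 22.8% of all named features had none with 2 arrays against 3. The change was 0.91 (SE 0.53, limma adjusted p = 0.687, exact permutation p = 0.1, the smallest possible). It was 0.46 without the liver arrays of cows 57 and 32. Cows 32 and 38 also lay above the controls in the summed level of immune markers, at 13.67 and 12.81 against at most 12.75. In that of endothelial markers (2 of 3 found) they were at 10.16 and 9.74 against at most 9.43. The part of both in the CISH values was not tested. B9 cows 39, 41 and 57, at 8.42, 8.01 and 8.86, and B12 cows 36, 37, 40 and 52, at 7.72, 7.69, 7.39 and 9.31, overlapped the controls.

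Hepatic IGF1 was similarly uneven, with a residual SD of 0.75. Control cows 42, 43 and 51 were at 11.12, 10.55 and 11.75, B9 cows 39, 41 and 57 at 11.44, 12.06 and 9.62, B12 cows 36, 37, 40 and 52 at 11.94, 10.99, 11.49 and 11.46, and B9 + B12 cows 32 and 38 at 11.20 and 11.61. The lowest and the highest of the 12 livers were both in the B9 group. Changes were -0.10 (SE 0.55) with B9, 0.33 (SE 0.52) with B12 and 0.27 (SE 0.62) with both. Without cow 57, the B9 value was 0.61. The B12 value was 0.032 without control cow 43 and 0.63 without control cow 51. The other IGF1 probes gave 0.84 (SE 0.38, unadjusted p = 0.0537, limma adjusted p = 0.687) and 0.40 (SE 0.44) with B9 + B12, and on the first of these both treated livers lay above all controls (exact permutation p = 0.2), in a comparison where 22.8% of all named features had no overlap. These are cows 32 and 38, which also lay above the controls in immune and endothelial markers, and cow 32 is an array that stood apart.

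Whether the treatments acted differently in the tissues was tested by the difference of each effect. Limma called 0 of 8 genes for each of the 3 treatments, with 0 at an unadjusted p below 0.05, and called 0% of all named features, of which 2.22%, 1.64% and 4.16% had an unadjusted p below 0.05. Differences, gland minus liver, lay between -0.67 and 0.73 for B9, between -0.39 and 0.97 for B12 and between -1.02 and 0.48 for B9 + B12. Cyber-T gives no such contrast and was not run for it.

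Of the 33 further pathway genes, limma called 0 of 198 changes with the vitamins, with 9 at an unadjusted p below 0.05, where 1.92% to 5.88% of all named features were in a comparison. Cyber-T called 0, with 19 below 0.05, where 3.72% to 6.56% of all named features were. The smallest p belonged to IGFBP3, the main IGF carrier of the blood, whose liver level was 0.58 higher with B9 + B12 (SE 0.15, unadjusted p = 0.00265, adjusted p = 0.687) and 0.37 higher with B12 (SE 0.12, unadjusted p = 0.0131, adjusted p = 1.00). The summed level of immune markers also lay above the controls (at most 12.75) in both groups. It was 12.83 to 12.90 with B12 and 13.67 and 12.81 in B9 + B12 cows 32 and 38, and its part was not tested. Cow 32 is an array that stood apart.

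Correlations between members were computed for 8 pairs over the arrays of a tissue. The largest r was that of GHR with IGF1 over the 12 livers, with a Pearson r of 0.69 (permutation p = 0.0169, 0.135 after adjustment over the 8 pairs) and a Spearman rho of 0.56 (permutation p = 0.0629, 0.504 after adjustment). Without the 2 arrays farthest from the median of GHR, those of cow 57 and cow 38, r was 0.30, and without the liver arrays of cows 57 and 32 it was 0.29. The relation did not hold without these arrays, and cow 57 is in both pairs. After subtracting group means over all 12 livers, r was 0.74.

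Liver SOCS2 fell into separate sets, so that its r over all 12 livers (0.24 with GHR, -0.05 with IGF1 and 0.35 with CISH), which counts among the 8 pairs, is not read as a relation. Within the 8 lower arrays, r was -0.28 with GHR, -0.57 with IGF1 and 0.43 with CISH, each untested. In the 13 gland arrays r was -0.16 for GHR with IGF1, -0.09 for PRLR with ELF5, -0.18 for PRLR with CISH and 0.10 for SOCS2 with CISH, with permutation p from 0.557 to 0.776 and adjusted p of 0.881.

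**Figure D5:**
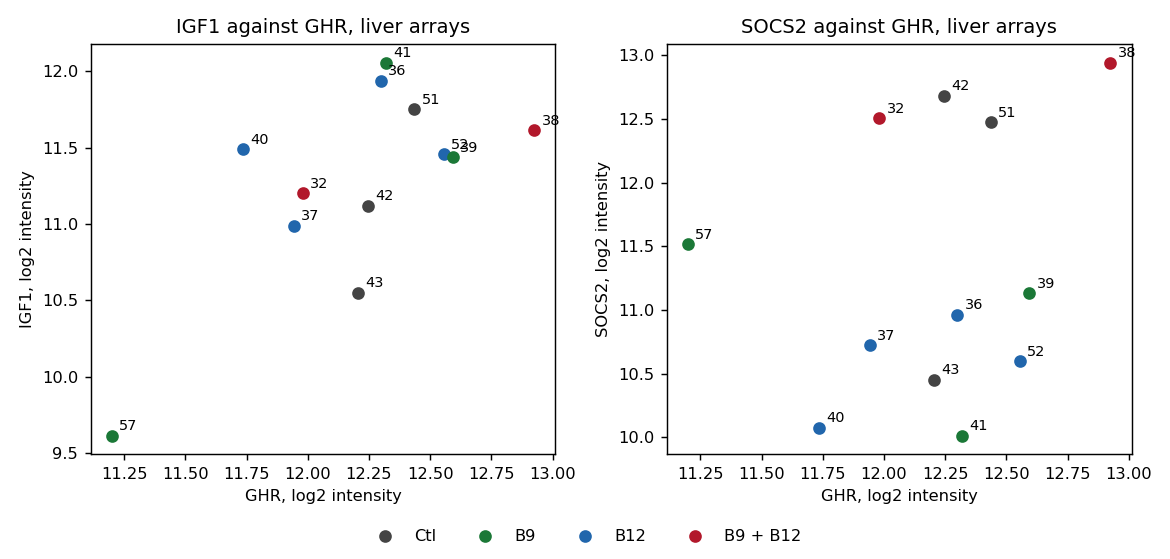
Levels of IGF1 (left) and SOCS2 (right) against those of GHR in the 12 liver arrays (log2 intensity, quantiles within the liver), colored by treatment and labelled by cow number. Cow 57, at 11.20 for GHR and 9.62 for IGF1, lies apart from the other arrays, and the SOCS2 levels leave a gap between 11.52 and 12.48.

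Among 8938 genes well above background on all 12 liver arrays, those whose levels followed IGF1 most closely were GALNT1 (r = 0.90), SBSN (0.88) and KCTD18 (0.88). Among 8466 such genes in the gland, RTN3 (0.85), PDCL (0.85) and UBE2G1 (0.84) followed ELF5 most closely over 13 arrays. These are the highest values of all genes compared and are a description of these arrays.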

How the data were processed

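Liver and mammary RNA was measured on 25 1-color arrays. The authors deposited scanner output, which gives for every spot the median intensity of the spot and of the background around it without normalization, and a table of log2 values, corrected by normexp and normalized among the arrays of a tissue. Agilent Feature Extraction is 9.1 per the labels and 10.7.3.1 per the file headers. The deposited table was used as an alternative, since its tissues were normalized separately; over all probes its values had a correlation of 0.996 (liver) and 0.994 (gland) with those used here.

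Median intensities were corrected by normexp (offset 50), normalized by quantiles and put on the log2 scale. Control spots and outlier spots were left out (43803 of 45220 spots are not controls), and spots of a probe were averaged. Of 43653 probes, 23509 were paired with a symbol through RefSeq accessions (ARS-UCD2.0). The array was designed on another build, so that no positions are given, and no sequences were used. The number of arrays limits the precision.

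Treatments were compared with controls in R 4.3.3 with limma 3.58.1 and data.table (1.17.8) over all arrays of a tissue, and tissues over all 25 arrays, with Benjamini-Hochberg adjustment over all probes. Single values had exact permutation tests, and correlations 100000 permutations (numpy 2.4.6). The members, gene lists, marker lists and tests were chosen with earlier results of these data known. Named are the members by lead probe, in each role the 2 further genes with the largest called tissue difference, the 2 smallest p of any treatment, and the 3 genes most like IGF1 in the liver and ELF5 in the gland. Marker lists were those of hepatocytes, mammary epithelium, adipocytes, immune cells, stroma, endothelium and muscle.

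The cow pairs the tissues by its number in the labels. As a check, the deviations of a cow's liver array from its group mean were correlated with those of its gland array. This ranged from -0.245 to 0.262 (median 0.04) and was above 0.1 in 4 of 12 cows.

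Alternatives were other background corrections and scalings, the deposited table, Cyber-T (window 101, confidence 10), a filter on dim probes, outlier spots kept, slide or cow as a block, control cows only, the mean of all probes and each array left out. Fits without cows 57 and 32 and with the scan day were added after seeing the data. Both tools were tried on simulated data, with changes placed on probes drawn at random from all probes. There limma found between 34.3% and 58.2% of changes of 1 log2 unit and between 89.6% and 100% of those of 2, with at most 3 unchanged probes called, and Cyber-T between 43.3% and 61.2% of changes of 1 log2 unit, with 26 to 144 unchanged probes called.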

Additional observations from a re-analysis of the deposited data

Results flagged for a closer look

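In groups of 4 arrays, a single array lay far from the others of its group in 2 of 16 groups tested, where chance would mark about 1 in 20. CISH in the gland of B12 cow 40 was at 9.38, with the other 3 arrays of the group at 8.52 to 8.61. PRLR in the gland of B12 cow 37 was at 9.98, with the other 3 at 9.42 to 9.49. The liver values of the same genes were the lowest of the 12 livers for CISH in cow 40, at 7.39, and within the range of the other arrays of its group for PRLR in cow 37, at 11.89. Groups of 2 and 3 arrays were not tested in this way.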

How the results depend on the processing

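Over 26 settings for each liver comparison and 24 for each gland comparison, the number of members called stayed at 0. Over 37 settings for the tissues it was between 4 and 7 (5 as reported), and that of further pathway genes between 18 and 22 (20 as reported). With each array left out in turn, the tissue differences ranged from 8.63 to 8.71 for ELF5, 1.01 to 1.17 for STAT5A, 1.12 to 1.32 for CISH, -2.50 to -2.28 for GHR and -3.03 to -2.75 for IGF1. The paired analysis, with the cow as a fixed replicate block, gave 8.69, 1.14, 1.27, -2.36 and -2.90, and with the cow as a random replicate block (consensus correlation -0.02) 8.66, 1.07, 1.22, -2.39 and -2.86; the block changed no call. Signs turned for treatment changes that were not called: with 1 array left out at a time, GHR in the liver ranged from -0.54 to 0.16 with B9 and from -0.31 to 0.63 with B9 + B12, and IGF1 from -0.61 to 0.61 with B9 (0.20 without control cow 51) and from -0.028 to 0.57 with B9 + B12. Without the liver arrays of cows 57 and 32, GHR and IGF1 were at 0.16 and 0.61 with B9, and r of IGF1 with SOCS2 in the liver, which pools separate SOCS2 sets and is not read as a relation (-0.05 over all livers), was 0.042; with the mean of all probes it was 0.068. After subtracting group means r was -0.00464 for liver GHR with SOCS2 (0.24 before, and likewise pooled), and in the gland 0.00585 for PRLR with ELF5 (-0.09 before) and -1.03e-05 for SOCS2 with CISH (0.10 before); PRLR with ELF5 was also 0.43 without the 2 farthest arrays and 0.027 with the mean of all probes. The causes were not tested.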
